A study of Homo sapiens with 4 samples.

Results

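NFE2L2, which encodes the transcription factor NRF2, its inhibitor gene KEAP1 and 8 antioxidant target genes were examined for binding of GapR-GFP, out of 20033 protein-coding genes. The targets were GCLC, GCLM, SLC7A11, NQO1, TXNRD1, SRXN1, HMOX1 and FTH1. The 10 genes were chosen by name with earlier peak results of the same libraries known, and their peaks were those with a summit inside the RefSeq span or at most 5 kb from it. Because the same peaks informed that choice, all counts and levels below are descriptions and carry no test.

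GapR is a protein of the bacterium Caulobacter that binds overtwisted, positively supercoiled DNA, and here it was fused to green fluorescent protein. It was mapped by CUT&RUN in HCT116 cells, a line from a human colorectal carcinoma. In that assay a nuclease directed by an antibody, here against GFP, cuts and releases the bound DNA. The series held 2 libraries labelled WT, with the genotype given as wildtype, and 2 labelled MT, with the genotype given as a double knockout of TOP2A and TOP2B. The series design instead describes MT as carrying a mutant GapR-GFP and the cells as asynchronous, while the treatment label gives a G1 arrest with 2 µM palbociclib over 28 h for all 4 libraries. These statements conflict and the peak lists do not settle them, so the groups are called WT and MT. Each WT library was compared by the authors with MT replicate 1 only, and MT replicate 2 was not analysed here.

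In unstressed cells KEAP1 binds NRF2 and hands it to a CUL3 ubiquitin ligase for degradation. Oxidants and electrophiles modify cysteines of KEAP1, NRF2 then accumulates, pairs with small MAF proteins and binds antioxidant response elements near its target genes. Those targets make glutathione, keep thioredoxin reduced, detoxify quinones and handle heme and iron. Transcription overtwists the DNA ahead of the polymerase and undertwists it behind, and type II topoisomerases relax both.

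After duplicate filtering, WT replicate 1 had 21774260 fragments, WT replicate 2 had 27443146 and MT replicate 1 had 23356540. The lists held 81404 peaks in WT replicate 1 and 42656 in WT replicate 2 on the nuclear chromosomes. A peak of WT replicate 1 that overlapped one of WT replicate 2 by at least 1 bp is called replicated, and there were 31815. Both lists share the MT control, so they are not independent of each other. The labels do not say whether the WT libraries came from separate cultures, so differences between them may be technical. No expression was measured, so the cell type label could be described only by peaks. A replicated summit lay at 5 of 8 intestinal epithelial genes, 1 of 4 leukocyte, 1 of 4 hepatocyte, 1 of 4 muscle and 2 of 4 neural genes. The intestinal share of 62.5% was the highest of these lists, but it was below the 66.6% of all protein-coding genes. The lists are short, with 4 to 8 genes each, and whether these peaks mark the cell type was not tested.

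The promoters of both regulators and of GCLM are shown first because their start peaks were replicated and their windows illustrate a summit or a motif match. Each sequence is the 250 bases before an annotated RefSeq start in GRCh38.p14, read 5′ to 3′ on the minus strand, which is the coding strand of all 3 genes. In NFE2L2 and KEAP1 the 21 capitals mark the summit of WT replicate 1 and 10 bases on each side. The summits of WT replicate 2 lay 463 and 1112 bp from these, outside the windows shown. In GCLM the capitals mark a match to the core antioxidant response element on the opposite strand.
NFE2L2 (chr2:177264728-177264977): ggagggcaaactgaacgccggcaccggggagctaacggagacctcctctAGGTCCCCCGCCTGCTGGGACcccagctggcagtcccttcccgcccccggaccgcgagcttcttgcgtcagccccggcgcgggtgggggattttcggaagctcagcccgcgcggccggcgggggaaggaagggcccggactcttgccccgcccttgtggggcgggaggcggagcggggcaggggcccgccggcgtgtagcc
KEAP1 (chr19:10503357-10503606): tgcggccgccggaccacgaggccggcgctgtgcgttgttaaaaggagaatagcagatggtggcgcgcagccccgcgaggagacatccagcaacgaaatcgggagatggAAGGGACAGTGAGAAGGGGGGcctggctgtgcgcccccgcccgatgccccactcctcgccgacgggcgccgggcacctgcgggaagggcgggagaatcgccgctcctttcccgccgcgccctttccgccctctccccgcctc
GCLM (chr1:93909431-93909680): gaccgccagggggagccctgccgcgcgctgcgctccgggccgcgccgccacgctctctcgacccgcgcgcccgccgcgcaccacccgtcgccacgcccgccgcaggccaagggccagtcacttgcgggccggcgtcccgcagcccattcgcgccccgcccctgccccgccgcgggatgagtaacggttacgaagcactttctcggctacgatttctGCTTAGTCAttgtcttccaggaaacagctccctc

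Start annotation was used for 7 of the 10 genes, with 10 annotated starts in all. Of their 10 upstream windows, 7 lay wholly under a peak in both WT lists. The same share over all annotated starts was not computed, so this count has no background beside it. WT replicate 2 had no peak over the windows of SRXN1 and of the outer TXNRD1 start. The windows were rich in G and C, with a median of 71.4% (52.4 to 80.4%) against 58.0% over 35116 annotated starts. The 12795 starts with a replicated summit within 1 kb had a median of 65.6%, and the 22321 without one had 51.6%. CpG dinucleotides stood at a median of 0.941 times their expected number in the 10 windows, against 0.825 at starts with a replicated summit and 0.310 at those without. At the median, high G and C content was therefore shared with other starts under peaks, but single windows varied. The inner TXNRD1 window, wholly under a peak in both WT lists, had 52.4%. The median of the 10 windows includes SRXN1 at 80.4% and the outer TXNRD1 window at 56.4%, neither under a peak of WT replicate 2.

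The core element TGACNNNGC was searched on both strands, and no other motif was searched. It was found in 4 of the 10 windows, at 5 sites in 3 genes, against 10.9% of all windows and 12.0% of those with a replicated summit within 1 kb. The sites are shown as 30 bases each on the strand that reads the element, with the matching bases in capitals.
GCLM, 34 to 26 bases before the start (chr1:93909446-93909475, plus strand): tggaagacaaTGACTAAGCagaaatcgtag
KEAP1 inner start, 31 to 23 bases before it (chr19:10502784-10502813, plus strand): caggtcaccaTGACTAAGCagagccgggcg
KEAP1 inner start, 54 to 46 bases before it (chr19:10502806-10502835, minus strand): acttttattgTGACACGGCgggcgcccggc
TXNRD1 outer start, 99 to 91 bases before it (chr12:104215670-104215699, plus strand): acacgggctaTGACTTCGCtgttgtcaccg
TXNRD1 inner start, 102 to 94 bases before it (chr12:104286919-104286948, minus strand): agagtcagaaTGACAAAGCagaaatccact

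GCLM and the inner KEAP1 start held the same 9 letters, and 3 of the 5 sites went on with an A. The element of the KEAP1 inner start lay under a peak in both WT lists, as did those of GCLM and the inner TXNRD1 start. A match describes the letters only and does not show that NRF2 binds there, and the short window says nothing of elements farther out.

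Each of the 10 genes carried a replicated summit inside its span or up to 5 kb away, where 66.6% of all protein-coding genes had one. Among the 15485 protein-coding genes within the same range of length, 3350 to 134529 bp, the share was 69.2%. In WT replicate 1 all 10 genes had a summit against 77.9% of protein-coding genes, and in WT replicate 2 all 10 had one against 68.3%. Together they held 92 peaks of WT replicate 1 and 56 of WT replicate 2, and 41 were replicated. With summits inside the gene span only, the count fell to 6 of 10 genes against 46.7% of all protein-coding genes. KEAP1, GCLM, SRXN1 and FTH1 dropped out because the summits of their replicated peaks, read in WT replicate 1, lay outside their spans. In WT replicate 2 the summit of the KEAP1 start peak lay 980 bp inside the span. Where peaks above the lowest MT level were left out it was 7 of 10 against 32.8%, without GCLM, SLC7A11 and FTH1.

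The fold enrichment is the authors' ratio of WT fragment coverage at the summit to the local MT level, after 1 is added to each, and a gene's value is the highest in the window in each list. In WT replicate 1 its median over the 10 genes was 8.91, against 7.32 over protein-coding genes with a peak. The medians of WT replicate 2 were 6.73 over the 10 genes and 5.95 over protein-coding genes. These backgrounds, also used for the percentiles of fold, were not matched for gene length or number of peaks. A highest value can rise with the number of peaks in the window. NFE2L2 ranked first with 11.8 in WT replicate 1 and shared the first place with NQO1 at 8.14 in WT replicate 2. That place rests on the flank, because with summits inside the gene span only NFE2L2 had 7.28 in WT replicate 1 and 6.89 in WT replicate 2, below TXNRD1, GCLC and NQO1 in each. Of the 10 genes, 7 lay above the median of protein-coding genes in WT replicate 1, and 6 did so in WT replicate 2. NFE2L2 reached the 91.5th percentile in WT replicate 1, while GCLM stood at the 9.26th percentile in WT replicate 2.

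**Figure D1:**
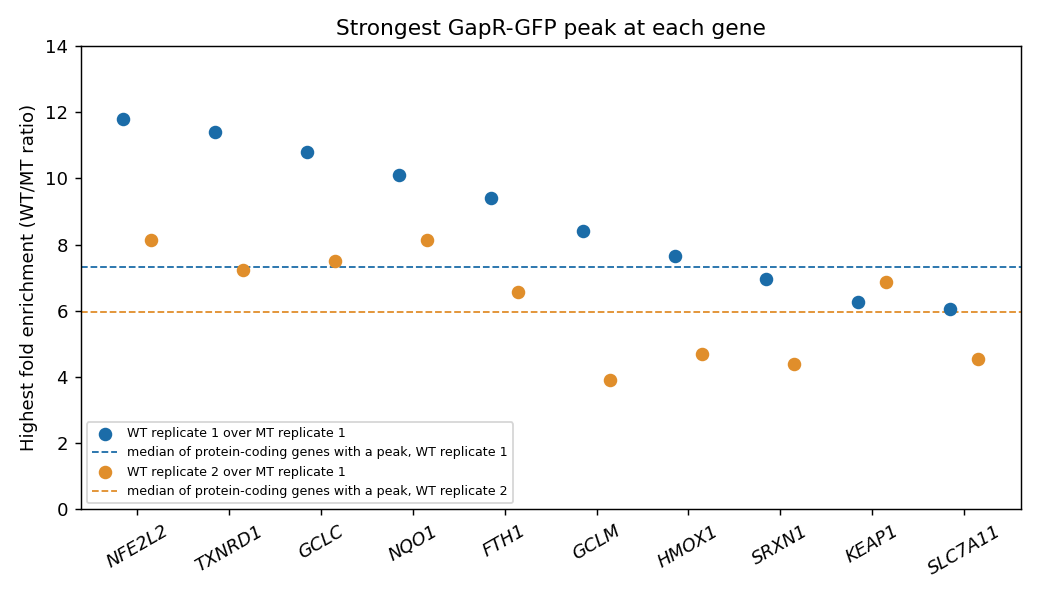
Highest fold enrichment of a peak inside each gene or up to 5 kb away, a WT/MT ratio on a linear axis, with 1 point per WT library and dashed lines at the median of protein-coding genes with a peak (7.32 in WT replicate 1 and 5.95 in WT replicate 2). NFE2L2, TXNRD1, GCLC, NQO1 and FTH1 lie above the dashed line of each library, and SRXN1 and SLC7A11 lie below it in both.

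Of the 7 genes with an annotated start, 6 had a replicated summit within 1 kb of a start, where 51.3% of 15842 protein-coding genes did. The exception was SRXN1, whose start peak was called in WT replicate 1 only. Within 1 kb of either boundary of the RefSeq span, 8 of the 10 genes had a replicated summit against 47.7% of protein-coding genes. The exceptions were SRXN1, whose replicated summit lay 1054 bp away, and TXNRD1, whose replicated start summit lay at the inner start, far inside the span. The distance limit bears on the count, since 3 genes had a replicated summit within 250 bp of a start. The share of protein-coding genes at that limit was not computed, so the 3 cannot be set against a background.

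At the 9 genes with a replicated peak at a start or at the matching boundary, fragment coverage at the summit was compared between libraries per 1000000 filtered fragments. WT replicate 1 was higher at 8 of the 9, with a median ratio of 1.66 (0.780 to 1.89), against 1.43 over all replicated peaks. The exact 95% Poisson intervals of both WT libraries, which cover counting error only, overlapped at 8 of the 9, with TXNRD1 apart. Summits of the WT lists lay a median of 134 bp apart (18 to 1112 bp), against 128 bp over all replicated peaks. In 5 of the 9 genes MT stood at its lowest possible level in both lists, so the fold there was taken over the genome background.

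**Figure D2:**
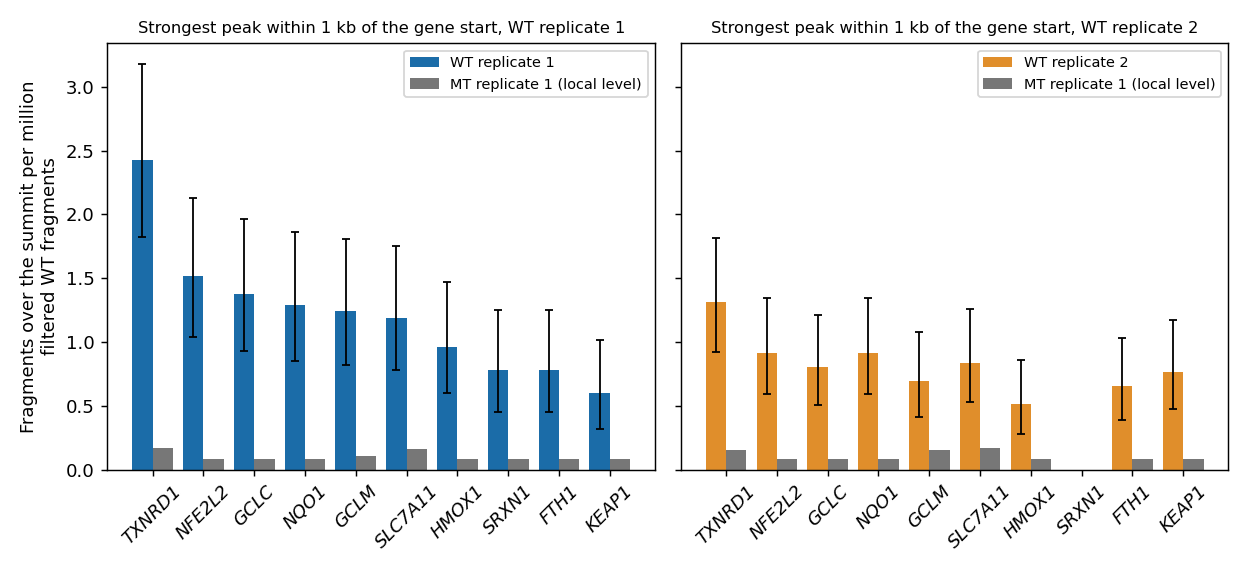
Fragment coverage at the summit of the strongest peak within 1 kb of a gene start (of a span boundary for SLC7A11, HMOX1 and FTH1), per 1000000 filtered WT fragments, for each WT library (coloured bars, with exact 95% Poisson intervals) beside the local level of MT replicate 1 scaled to that library (grey bars). TXNRD1 is the highest in both panels at 2.43 and 1.31, the MT levels lie between 0.0800 and 0.171, and SRXN1 has no peak there in WT replicate 2.

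The regulators came out differently from each other. NFE2L2 (chromosome 2, 177230303 to 177264727 in hg38) had its strongest peak over its start, with 33 fragments at the summit in WT replicate 1 (95% interval 22.7 to 46.3) and 25 in WT replicate 2 (16.2 to 36.9). The local MT level was 1.87 and 2.20 fragments at WT depth, the lowest of each list, which gave fold enrichments of 11.8 and 8.14. The peak was 3318 bp long in WT replicate 1 and 2204 bp in WT replicate 2, and both summits lay upstream of the outer start, by 191 and 654 bp.

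NFE2L2 also carried peaks along its whole body. In a span of 34425 bp with its flanks it held 21 peaks of WT replicate 1 and 15 of WT replicate 2, and 10 were replicated. That was 0.225 replicated summits per kb, against a median of 0.0253 over genes in the same range of length and above 99.6% of them or equal. Replicated peaks covered 36.6% of its span, where the median protein-coding gene had 1.13%. All 15 peaks of WT replicate 2 overlapped a peak of WT replicate 1. Inside the gene away from the starts, 7 replicated peaks had a median fold of 5.79 in WT replicate 1, and the matching peaks of WT replicate 2 had 3.92, so they were lower than the start peak. The strongest of these lay about the middle of the gene, 15005 and 14981 bp from the boundary of lower coordinate. It had 21 fragments in WT replicate 1 at a fold of 7.28, and 22 in WT replicate 2 at a fold of 6.89. A longer peak beside it, of 3924 bp, had 33 fragments in WT replicate 1 over an MT level of 3.73 and a fold of 7.19, and 21 in WT replicate 2 at a fold of 6.54.

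Some peaks counted for NFE2L2 lay nearer to other genes. A replicated summit in the flank beyond its end was 2727 bp from HNRNPA3, which encodes an RNA-binding protein, and 3617 bp from NFE2L2. Another lay inside the pseudogene DNAJC19P5, 940 bp from NFE2L2. A further 7 of the 10 replicated summits had no other annotated gene within 5 kb, and 1 lay 1090 bp from the microRNA gene MIR3128.

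KEAP1 (chromosome 19, 10486125 to 10503356) had 2 peaks in each list, both replicated, and none in its body away from the starts. The peak over its starts had 13 fragments in WT replicate 1 (6.92 to 22.2) and 21 in WT replicate 2 (13.0 to 32.1), over MT levels of 1.87 and 2.20. Fold enrichment was 4.88 and 6.88. KEAP1 was the start peak with higher coverage in WT replicate 2, and the intervals of both libraries overlapped. The summits lay 1112 bp apart, 132 bp upstream of the outer start in WT replicate 1 and 395 bp downstream of the inner start in WT replicate 2, under peaks of 1519 and 1906 bp. The other peak lay upstream of the gene, with 17 fragments in each WT library, fold enrichments of 6.27 and 5.63 and no other annotated gene within 5 kb.

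Among the genes of glutathione synthesis, GCLC and GCLM encode the catalytic and modifier subunits of glutamate-cysteine ligase, and SLC7A11 encodes the cystine importer xCT. GCLC (chromosome 6, 53497341 to 53545101) had a start peak with 30 fragments in WT replicate 1 (20.2 to 42.8) and 22 in WT replicate 2 (13.8 to 33.3), and MT was at its lowest level in both lists. The fold was 10.8 and 7.20 and the summits were 22 bp apart. A peak of similar height lay upstream, 2736 and 2750 bp from the start, with 28 and 23 fragments and fold enrichments of 10.1 and 7.51. Another replicated peak lay beyond the other end of the gene inside GCLC-AS1, a long noncoding RNA gene, with 25 fragments in each WT library and fold enrichments of 6.10 and 6.42. The interior of the gene, 47761 bp long, held 2 peaks of WT replicate 1, at 4.18 and 2.70, and none of WT replicate 2. Replicated peaks at GCLC therefore lay around its ends and not in its interior.

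GCLM (chromosome 1, 93885199 to 93909430) had a single peak in each list, over its start. It held 27 fragments in WT replicate 1 (17.8 to 39.3) and 19 in WT replicate 2 (11.4 to 29.7), over MT levels of 2.33 and 4.11. Both MT levels come from the same MT library, scaled to the depth of each WT library and read at summits 56 bp apart. The fold was 8.41 in WT replicate 1, against 3.91 in WT replicate 2, where WT coverage was lower and the MT level higher. The summit lay inside LOC124904221, a long noncoding RNA gene that lies on the other side of the GCLM start, so the peak cannot be assigned to either gene alone.

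SLC7A11 (chromosome 4, 138164097 to 138242349) held 15 peaks of WT replicate 1 and 7 of WT replicate 2, and 4 were replicated. The highest in WT replicate 1 lay at the boundary of higher coordinate, with 26 fragments (17.0 to 38.1) and 23 in WT replicate 2 (14.6 to 34.5). MT levels there were 3.46 and 4.70 and the fold enrichments 6.05 and 4.21. Within the gene MT reached 7.05 beneath a peak with 18 fragments in WT replicate 2, whose fold was 2.36. The overlapping peak of WT replicate 1 had 23 fragments over an MT level of 3.14 and a fold of 5.80. Of the 10 genes it had the lowest best fold in WT replicate 1, at the 31.3rd percentile of protein-coding genes with a peak, beside MT levels above the lowest of each list. Whether the MT signal is GapR binding or background was not tested.

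NQO1 encodes the quinone reductase NAD(P)H dehydrogenase quinone 1, a standard marker of NRF2 activity. It (chromosome 16, 69709401 to 69726560) had a start peak with 28 fragments in WT replicate 1 (18.6 to 40.5) and 25 in WT replicate 2 (16.2 to 36.9). MT was at its lowest level in both lists and the fold was 10.1 and 8.14. The summits lay 295 and 277 bp inside the gene and 18 bp apart, the closest of the 9 start peaks. The peaks, 1648 and 2161 bp long, reached over the start towards the divergent transcript NQO1-DT, whose boundary was 462 bp from the summit.

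A second site at NQO1 marked its other end. There the summits lay 161 and 178 bp inside the span, with 20 and 19 fragments and fold enrichments of 7.32 and 5.97. NQO1-AS1, an antisense transcript gene, lay 312 bp away. In all, NQO1 held 5 peaks in each list and 4 replicated ones, 0.147 per kb, at or above 97.6% of genes in the same range of length. Every replicated summit of NQO1 had another annotated gene within 5 kb.

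TXNRD1 encodes cytosolic thioredoxin reductase, and SRXN1 encodes sulfiredoxin, which repairs oxidised peroxiredoxins. TXNRD1 (chromosome 12, 104215779 to 104350307) is the longest of the 10 genes and held the most peaks, 31 of WT replicate 1 and 17 of WT replicate 2, with 12 replicated. Its strongest peak lay at the inner start, with 53 fragments in WT replicate 1 (39.7 to 69.3) and 36 in WT replicate 2 (25.2 to 49.8), over MT levels of 3.73 and 4.11. The fold was 11.4 and 7.24. Among peaks at the lowest MT level, the highest fold at TXNRD1 was 5.57 in WT replicate 1. Per 1000000 fragments, coverage was 2.43 (1.82 to 3.18) in WT replicate 1 and 1.31 (0.918 to 1.81) in WT replicate 2, so the intervals did not overlap. The ratio of 1.86 includes the generally higher coverage of WT replicate 1, whose median ratio was 1.43 over all replicated peaks. Whether TXNRD1 differed beyond that was not tested.

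The outer TXNRD1 start behaved differently. It had a peak of 320 bp in WT replicate 1, with 14 fragments and a fold of 4.91, and none in WT replicate 2. Inside the gene, 4214 and 4148 bp after the outer start, stood a replicated peak with 55 and 42 fragments, the most of any peak at the 10 genes, over MT levels of 4.43 and 5.87. Its fold was 10.3 in WT replicate 1 and stood at 6.25 in WT replicate 2. The 11 replicated peaks in the gene away from the starts had a median fold of 5.57 in WT replicate 1. Of the 12 replicated summits, 8 had no other annotated gene within 5 kb, and the others lay in or near TXNRD1-AS1 and EID3.

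**Figure D3:**
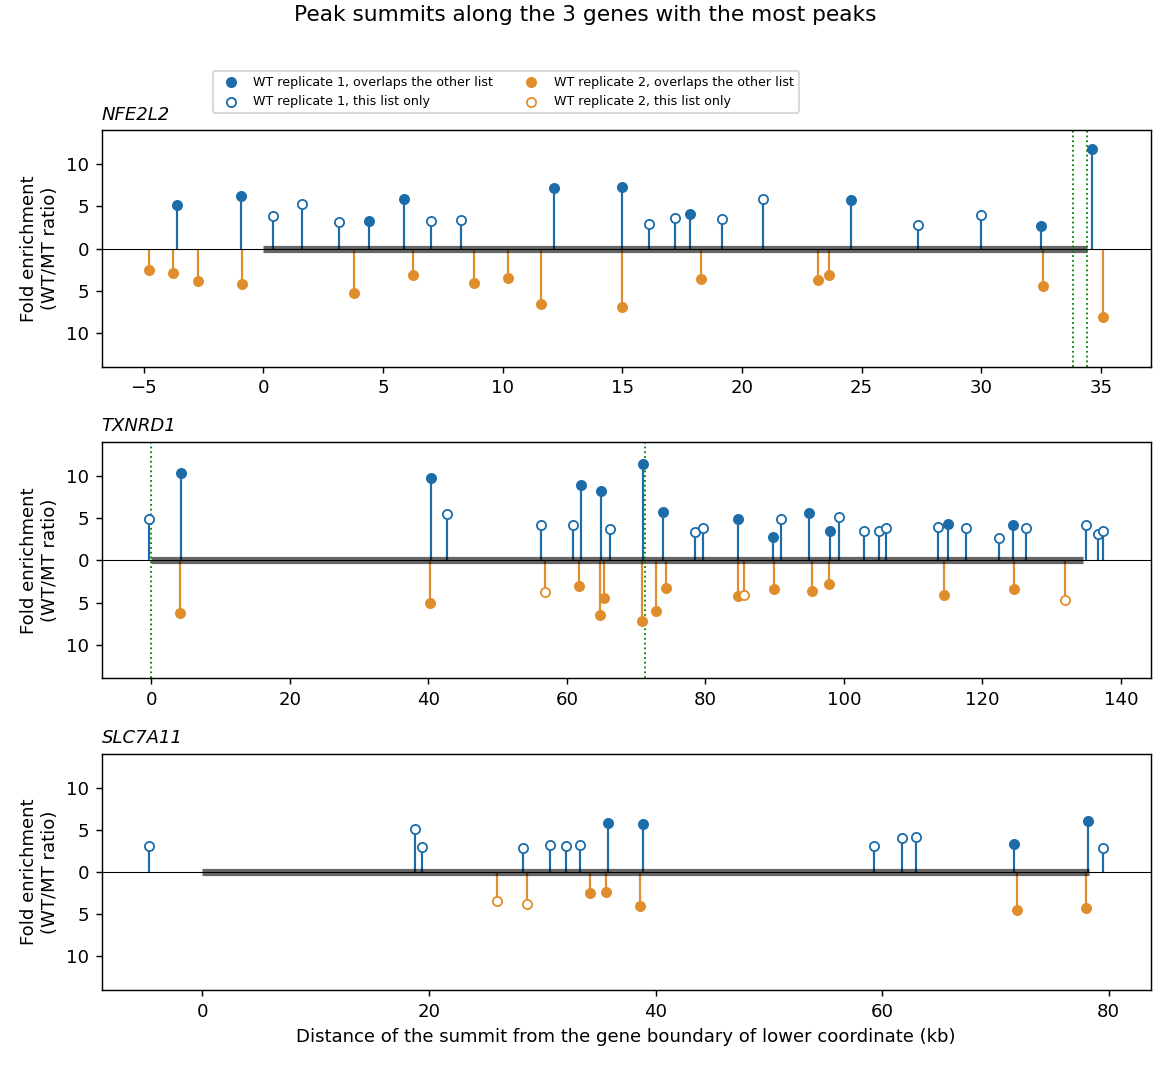
Fold enrichment of each peak against the distance of its summit from the gene boundary of lower coordinate, in kb, for NFE2L2, TXNRD1 and SLC7A11, with WT replicate 1 drawn upwards and WT replicate 2 downwards. Filled points overlap a peak of the other list, open points do not, the grey bar is the gene and dotted lines are annotated starts. NFE2L2 shows 21 and 15 peaks with the highest at its start, TXNRD1 shows 31 and 17 with the highest at its inner start, and SLC7A11 shows 15 and 7.

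SRXN1 (chromosome 20, 646615 to 653200) was the gene without a replicated start peak. In WT replicate 1 a peak of 1061 bp lay over its start, with 17 fragments (9.90 to 27.2), the lowest MT level and a fold of 6.27. WT replicate 2, the deeper library, had no peak there, and its coverage at that place is not given by the list. The replicated peak lay beyond the other end of the gene, 1054 and 1076 bp from it. It had 19 fragments and a fold of 6.97 in WT replicate 1, and 13 fragments and a fold of 4.38 in WT replicate 2.

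The remaining genes act on heme and iron: HMOX1 encodes heme oxygenase, which breaks heme down and frees its iron, and FTH1 encodes the ferritin heavy chain, which stores iron. HMOX1 (chromosome 22, 35381096 to 35394207) had 1 replicated peak, 123 and 218 bp inside the boundary of lower coordinate. It had 21 fragments in WT replicate 1 (13.0 to 32.1) and 14 in WT replicate 2 (7.65 to 23.5), with MT at its lowest level and fold enrichments of 7.66 and 4.69. Its body held no other peak. The 2 further peaks of WT replicate 1, each with 9 fragments and a fold of 3.48, lay outside the span beyond that boundary, and WT replicate 2 had no peak there.

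FTH1 (chromosome 11, 61964285 to 61967634) is the shortest of the 10 genes and sits among other genes. Its span held no replicated summit. The nearest replicated peak had its summits 113 and 574 bp beyond the boundary of higher coordinate, within LOC399900 in WT replicate 1, with 17 and 18 fragments and fold enrichments of 6.27 and 5.67. The strongest stood 4163 and 4370 bp beyond the same boundary, with 26 and 21 fragments and fold enrichments of 9.41 and 6.57. Another, inside BEST1, had 14 and 13 fragments and fold enrichments of 5.23 and 3.56. FTH1 has processed pseudogene copies elsewhere in the genome, and the treatment of reads that match several places is not stated in these sources, so coverage of its span is uncertain.

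Among the replicated peaks pooled over these genes, those near starts had a higher median fold than those inside. The 6 replicated peaks within 1 kb of an annotated start had a median fold of 10.4 in WT replicate 1, and the matching peaks of WT replicate 2 had 7.22. The 23 replicated peaks in gene bodies had medians of 5.69 and 4.05. They came from TXNRD1 (11), NFE2L2 (7), SLC7A11 (3) and NQO1 (2) only. Within NFE2L2, NQO1 and TXNRD1 the start peaks had 11.8, 10.1 and 11.4 in WT replicate 1. The body medians of these genes were 5.79, 5.29 and 5.57. The same comparison over all protein-coding genes was not computed. At the span boundaries of SLC7A11, HMOX1 and FTH1, which had no start annotation, the 4 replicated peaks were nearer to those of the bodies. Their median fold was 6.16 in WT replicate 1, and overlapping peaks of WT replicate 2 at these boundaries had 4.69. They include the FTH1 peak inside BEST1, 881 bp beyond the FTH1 boundary of lower coordinate. Its partner in WT replicate 2, with a fold of 3.56, lay 1258 bp from that boundary and is not in the median of 4.69. Of the peaks of WT replicate 2 at these genes, 87.5% (49 of 56) overlapped a peak of WT replicate 1, close to the 84.5% of its whole list. Of those of WT replicate 1, 44.6% (41 of 92) overlapped one of WT replicate 2, against 39.1% of its whole list. Peaks of WT replicate 1 alone were lower and shorter, with a median fold of 3.48 and a median length of 419 bp, against 6.05 and 1529 bp for the replicated ones. Its whole list split alike, at 3.60 and 393 bp against 5.92 and 1067 bp. A longer peak meets the overlap of 1 bp more easily, so part of the difference in length arises by construction. The MT control was at its lowest level under 45.7% of the peaks of WT replicate 1 at these genes and 41.9% of its whole list. For WT replicate 2 it was 35.7% at these genes and 32.5% of its whole list.

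The density of replicated summits varied widely among the 10 genes. Per kb of span and flanks, all 10 stood above the median of genes in the same range of length, which was 0.0253, with a median of 0.0669 (0.0292 to 0.225). That background median includes genes without a replicated summit. GCLM, at the 54.4th percentile, and HMOX1, at the 67.8th, stood closest to it, while NFE2L2 and FTH1 reached the 99.6th. Counting all summits of each WT list alone, 9 of the 10 lay above the median and GCLM lay below it. FTH1 shared the highest value with NFE2L2, but all 3 of its replicated summits lay within or nearer to other genes. At the limit of 5 kb, the outermost counted summit was that of FTH1 at 4912 bp, with a fold of 3.83 in WT replicate 1. The first left out was at TXNRD1 at 5322 bp, with a fold of 2.90 in WT replicate 1.

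The wider pathway was described with 64 further genes in 7 lists, of which 51 (79.7%) had a replicated summit, against 66.6% of protein-coding genes. Where peaks above the lowest MT level were left out, the count was 22 of 64 against 32.8%, near the background. All 11 genes of the regulator list, which includes partners and relatives of NRF2, had a replicated summit. Genes longer than any of the 10 were among them, and gene length was not matched for these lists. NFE2L1, a related transcription factor, reached 13.7 in WT replicate 1 and 9.44 in WT replicate 2. MAFG, a small MAF partner, reached 12.9 and 8.84, and SQSTM1, the autophagy receptor that binds KEAP1, reached 10.1 and 8.76. All 3 lay above the 8.14 of NFE2L2 in WT replicate 2, and NFE2L1 and MAFG also lay above its 11.8 in WT replicate 1.

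In the glutathione list 14 of 16 genes (87.5%) had a replicated summit, against 66.6% of protein-coding genes. Among them were the synthetase gene GSS at 11.8 and 9.85 and the peroxidase gene GPX1 at 9.41 and 7.82. SLC3A2, which encodes the partner chain of xCT, had 8.71 and 6.88. The longest without a replicated summit was GSTM3, a glutathione transferase gene. In the thioredoxin list 4 of 6 (66.7%) had one, near the 66.6% of protein-coding genes. The thioredoxin gene TXN had 10.5 and 8.66. The peroxiredoxin genes PRDX6 and PRDX1 had 10.1 and 6.57, and 7.04 and 5.52. TXNRD3 had a summit in WT replicate 1 only, with a fold of 8.01.

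All 6 genes of NADPH supply had a replicated summit, against 66.6% of protein-coding genes. Among them were PGD, of the pentose phosphate pathway, at 11.8 and 8.45, and the malic enzyme gene ME1 at 11.1 and 7.82. In the iron and heme list 7 of 9 (77.8%) had a replicated summit. BLVRB, a biliverdin reductase gene, had 18.5 in WT replicate 1, the highest of the further genes named, and 8.66 in WT replicate 2. ABCB6, a porphyrin transporter gene, had 9.01 and 7.36 and HMOX2, the constitutive heme oxygenase gene, had 6.62 and 5.53, while the iron exporter gene SLC40A1 had no peak in either list.

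The quinone and carbonyl list was the lowest, with 6 of 12 genes, below the 66.6% of protein-coding genes. OSGIN1 reached 13.3 and 8.94, the quinone reductase gene NQO2 reached 9.22 and 8.36, and the carbonyl reductase gene CBR3 reached 7.17 and 7.46. PIR was the longest without a replicated summit. Several members of this list are near-identical neighbours, the AKR1C genes among them, so their read placement is uncertain. Of the superoxide and peroxide genes, 3 of 4 had a replicated summit, with the catalase gene CAT at 11.5 and 8.17, the mitochondrial dismutase gene SOD2 at 8.71 and 5.56 and the cytosolic SOD1 at 8.01 and 5.37. The extracellular dismutase gene SOD3 had no peak in either list.

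Measured by the pair of best folds in both WT lists on the log2 scale, the 50 further genes with a peak in both lists were ranked by their distance from the median pair of the 10 genes. The nearest were GSTP1 (9.01 and 6.57), SLC3A2 and ABCC1 (8.68 and 7.02). With a pair of libraries only, this likeness rests on the height of 1 peak per list.

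**Figure D4:**
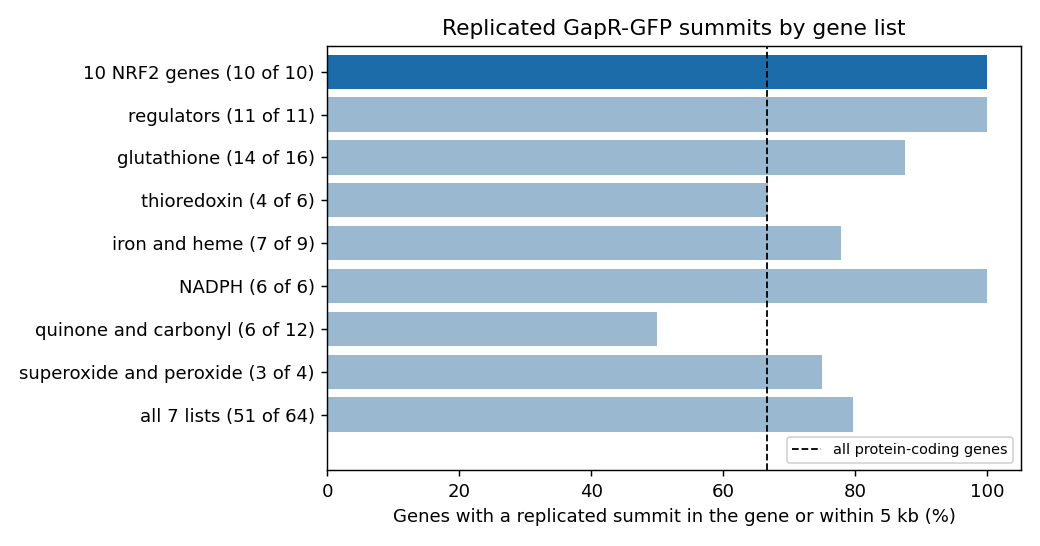
Percent of genes that carry a replicated summit inside the span or up to 5 kb away, for the 10 NRF2 genes and the further pathway lists, with the count of genes beside each name and a dashed line at the 66.6% of all protein-coding genes. The 10 NRF2 genes, the 11 regulators and the 6 NADPH genes stand at 100%, and the quinone and carbonyl list, with 6 of 12, stands below the line.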

How the data were processed

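CUT&RUN libraries for GFP were sequenced as paired 75 bp reads, per the labels' protocols. Bowtie2 2.3.4, ChIPseeker 1.28.3, MACS2 2.1.2 and hg38 are named in the submitters' processing notes, in no stated order. Peaks were called for each WT library against MT replicate 1 at a q-value cutoff of 0.05, with at most 2 duplicate fragments, per the file headers. The signal in the deposited files is pileup, the number of WT fragments over the summit. Fold enrichment as deposited is a ratio of pileup to local MT level, with 1 added to each. MACS2 also gave each deposited peak its −log10 q-value and −log10 p-value. The local MT level was computed back from pileup and fold. Its lowest values, 1.87 and 2.20, equal the genome background of each WT library. Above them, 50.0% and 54.1% of MT levels fell on multiples of 0.466 and 0.587 (within 0.02 of a step), steps that scale with the ratio of WT to MT depth (0.932 and 1.17), against 1.41% and 0.671% on an unscaled step of 0.5. WT pileups were therefore taken as unscaled and MT as scaled to WT depth.

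Genes and starts came from RefSeq tables of GRCh38.p14, and coordinates are those of hg38. All 10 genes and all further genes matched by symbol, and 7 of the 10 had an entry among the start sequences. HMOX1, SLC7A11 and FTH1 are described by their span boundaries. The 7 mitochondrial peaks of WT replicate 1 were dropped. Overlap, assignment and coverage functions were tested on simulated data with known answers (Python 3.11.15, numpy 2.4.6, pandas 2.3.3, scipy 1.17.1). Intervals are exact 95% Poisson intervals of the pileup, which was read at the highest point of each peak. The 10 genes and all lists were chosen with earlier results of these data known. Named genes are the 10 genes, the 3 of each list with the best worse rank of fold in both lists, the longest of each list without a replicated summit, the 3 nearest in fold, and neighbours that share a peak. The values of 1 gene that this rule names are not reported here. Alternatives covered the overlap, the peak threshold, the window, the MT level and each WT library alone.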

Additional observations from a re-analysis of the deposited data

How the results depend on the processing

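No paired analysis was possible because each peak list holds 1 WT library, both use the same MT library, and no test between groups was made. Between 7 and 10 of the 10 genes had a replicated summit under each alternative run except the gene span alone, which gave 6. For the 64 further genes, the restriction to peaks at the lowest MT level was the setting that moved the count of 51 by more than 1.5 times, to 22. The 66.6% of protein-coding genes became 49.9% with 50% overlap of both peaks, 51.6% with summits within 200 bp, 54.8% at a −log10 q of at least 5, 55.6% above each list's median fold, 46.7% in gene spans, 61.5% with a 1 kb flank, 70.7% with a 10 kb flank and 32.8% at the lowest MT level. It was 68.3% without WT replicate 1 and 77.9% without WT replicate 2, and these settings gave 10 of 10 genes each, 50 and 55 of the 64, and 6 and 7 genes with a start summit. That start count of 6 became 3 within 250 bp. For the start counts, a share of protein-coding genes was computed for the main setting only, at 51.3%. The 92 peaks in WT replicate 1 became 42 at a −log10 q of at least 5, 48 above the median fold and 42 at the lowest MT level, and the 56 in WT replicate 2 became 25, 24 and 20. Fewer peaks enter under these settings by construction. The median highest fold of 6.73 in WT replicate 2 became 4.69 at the lowest MT level. Of 120 highest folds of single genes under these settings, 11 had no peak left and 103 moved by no more than 1 SD of both WT libraries. The other 6 were NFE2L2 in gene spans (7.28 from 11.8 in WT replicate 1), KEAP1 and FTH1 with a 1 kb flank (4.88 from 6.27 and 6.27 from 9.41 in WT replicate 1) and, at the lowest MT level, SLC7A11 and TXNRD1 (4.18 from 6.05 and 5.57 from 11.4 in WT replicate 1) and FTH1 (3.13 from 6.57 in WT replicate 2). Depth limits single peaks, since a summit of 13 fragments has an interval of 6.92 to 22.2.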
